A study of Homo sapiens with 10 samples.

Results

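The genes of matrix breakdown described here were 4 matrix metalloproteinases (MMP1, MMP2, MMP3 and MMP14), 3 tissue inhibitors of metalloproteinases (TIMP1, TIMP2 and TIMP3) and the 2 plasminogen activators PLAU (urokinase) and PLAT (tissue plasminogen activator). They were listed by gene symbol as genes of 1 function, with earlier results of these data known. All 9 were listed for both assays and all 9 were among the 7015 genes tested, out of 11258 transcripts measured by both assays. The cells were BJ fibroblasts, a human line immortalised with the catalytic subunit of telomerase (hTERT), cultured in medium with fetal calf serum. A control was compared with cells exposed for 2, 4, 6 or 19 h to nutlin-3a, an inhibitor of MDM2, the protein that holds p53 in check. RNA-Seq of poly(A) RNA gave transcript levels, and Ribo-Seq, which sequences the mRNA stretches covered by ribosomes, gave ribosome density. The question was how activation of p53 shifts the transcript level of these genes and how much of that is seen again in ribosome density. All groups share the hTERT background, and they represent 1 fibroblast line without other cell types or an animal's matrix around it.

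Each group was a single library, 10 in all. No spread between replicates could be had, no p-value was computed, and groups cannot be said to overlap or not. The errors given are counting errors of the reads alone. In bulk libraries, fewer cells with a transcript and less of it per cell cannot be told apart. Levels are in FPKM, fragments scaled to transcript length and library size. Translational efficiency (TE) is the Ribo-Seq level over the RNA-Seq level, and its changes are given on the log2 scale. A gene was called higher or lower when its log2 ratio to the control library left a band, set by the local SD, around the running median of the 200 genes nearest to it in level. "Rose" and "fell" are used for such calls only.

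Fibroblasts secrete most of these enzymes into the matrix they themselves build. MMPs are zinc endopeptidases made as inactive precursors. MMP1 is the interstitial collagenase that opens the collagen triple helix, MMP3 (stromelysin 1) cuts proteoglycans and other matrix proteins and activates other pro-MMPs, and MMP2 (gelatinase A) degrades denatured collagen. MMP14 is anchored in the cell membrane and activates pro-MMP2, in a complex that needs TIMP2. TIMPs block the catalytic site of the MMPs. Urokinase and tissue plasminogen activator turn plasminogen into plasmin, which degrades fibrin and can in turn activate pro-MMPs. The readouts here are transcripts and ribosomes on them, so secretion, activation of the precursors and inhibition were not measured.

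MMP14 had the most calls of the group, 6 in 12 comparisons. Its RNA rose from 4 h on and reached 2.05-fold of control at 19 h, and its ribosome density rose at the same 3 times, to 2.97-fold. PLAU RNA rose early, at 2 and 4 h, and was below control at 6 and 19 h without a call. MMP2 density rose 2.65-fold at 19 h, a call that 2 alternative settings ended. PLAT rose at 2 h in density and in TE but not in RNA. MMP1, MMP3, TIMP1, TIMP2 and TIMP3 had no call in any of the 12 comparisons, and no member was called lower in any of them.

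In RNA, 1, 2, 1 and 1 of the 9 members were called in time order, all of them higher. Of all tested genes, 4.15%, 4.46%, 1.6% and 1.88% were called higher in RNA and 4.63%, 6.64%, 6.36% and 6.2% in either direction. In ribosome density 1, 1, 1 and 2 members were called, again higher, against 4.6%, 4.15%, 2.84% and 2.74% of tested genes called higher and 6.3%, 6.39%, 7.07% and 6.47% in either direction. In TE 1 member was called higher at 2 h and none later, against 4.42%, 4.38%, 3.66% and 3.46% of tested genes called higher and 7.1%, 7.71%, 6.69% and 7.48% in either direction. A single gene of 9 already exceeds each of these shares, so the counts are too small to set the group apart from the background. By a plain 2-fold limit, 0, 0, 2 and 3 members were higher in density (MMP14 and MMP2 at 6 h, with TIMP3 in addition at 19 h), against 2.12%, 2.58%, 5.26% and 6.22%. No member was 2-fold higher in TE, where 1.14%, 0.87%, 3.21% and 1.94% of tested genes were.

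The median RNA change of the members (log2) was -0.03, 0.10, 0.20 and 0.21 in time order, where that of all tested genes was -0.05, -0.07, -0.002 and -0.07. In density the members' median change was 0.41, 0.24, 0.31 and 0.39, and that of all tested genes 0.02, 0.10, -0.02 and -0.19. The median density of all tested genes thus shifted by over 0.1 at 4 and 19 h, and members stood above that median in 6 and 8 of 9 cases.

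**Figure D1:**
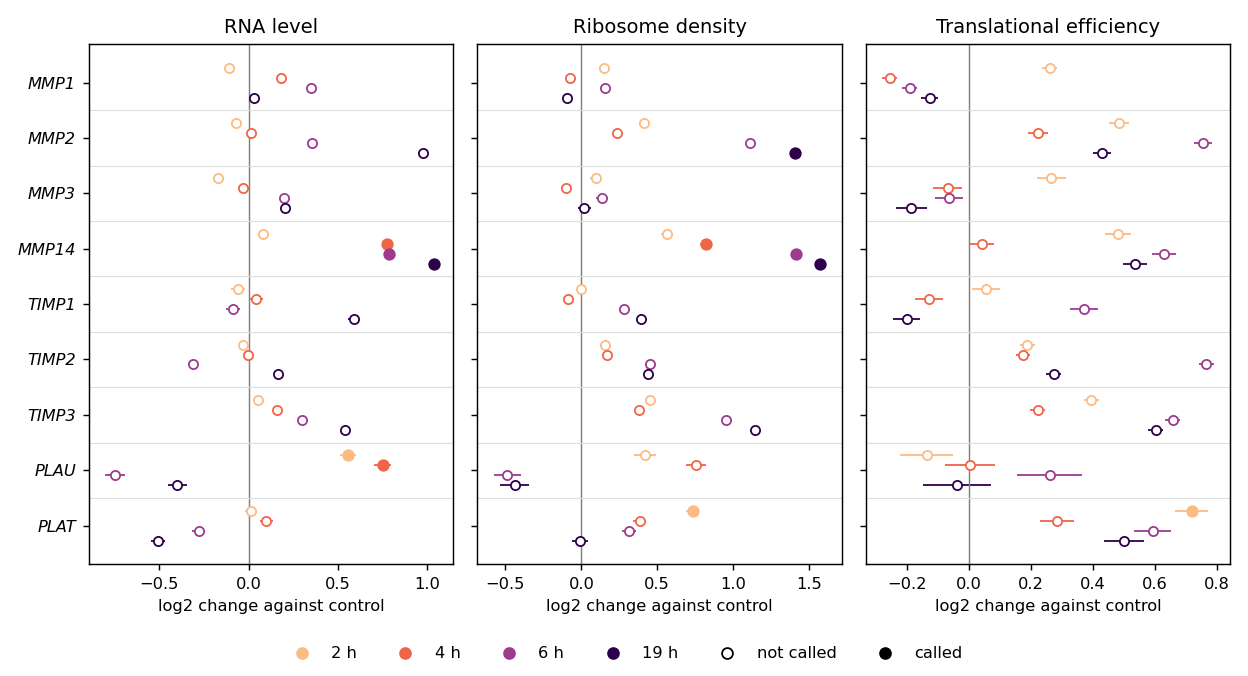
log2 change against the control library (x axis) of each gene (rows) in RNA level, ribosome density and translational efficiency, with the 4 treatment times in colour. Bars are 1 counting standard error, filled points are called and open points are not. MMP14 is filled at 3 times in RNA and density, PLAU at 2 times in RNA, MMP2 once in density, and PLAT once in density and once in TE.

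The treatment left its mark in the same libraries. CDKN1A, the p53 target that encodes the cell-cycle inhibitor p21, went from 68.6 FPKM of RNA in the control to 1316 at 19 h, and MDM2 from 14.9 to 259. The 8 fibroblast markers on the list used were all present in every RNA-Seq library, at 55.5 FPKM for the lowest value. Of 13 epithelial, endothelial and immune markers 6 were listed for RNA-Seq and none of these reached 1 FPKM, the highest being CD14 at 0.51. In Ribo-Seq CD14 alone was listed, at up to 1.10 FPKM.

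MMP14 (ENSG00000157227, chromosome 14) is described first among the proteases. The 250 bases before its annotated transcription start (RefSeq, GRCh38.p14, chr14:22836335-22836584, plus strand) are shown because RNA of this gene rose at 3 of 4 times, with matches to the GC box, GGGCGG on either strand, in capitals.

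MMP14 promoter: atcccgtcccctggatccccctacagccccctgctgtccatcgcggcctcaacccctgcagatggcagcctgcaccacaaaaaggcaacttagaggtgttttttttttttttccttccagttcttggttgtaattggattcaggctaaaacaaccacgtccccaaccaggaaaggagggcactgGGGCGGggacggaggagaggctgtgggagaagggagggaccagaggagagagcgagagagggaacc

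This window holds 1 GC box, 66 bases before the start. The search also covered the AP-1 site TGANTCA, the TATA box TATAAA and the p53 half-site consensus, on both strands, and found no other match in it. A GC box occurs in 42.6% of 35116 promoter windows of the same length, an AP-1 site in 6.57%, a TATA box in 10.7% and the p53 half-site in 5.57%. A match or its absence describes these letters only.

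RNA of MMP14 was at 108.1 FPKM in the control and at 114, 185, 186 and 222 FPKM after 2, 4, 6 and 19 h. The 2 h library was close to the control and the 3 later ones were well above both. Ribosome density was 60.4 FPKM in the control and 89.2, 107, 161 and 179.6 FPKM in the same order, higher at each time than at the one before. In time order, the log2 change of RNA was 0.08 ± 0.02 (counting SE), 0.78 ± 0.02, 0.79 ± 0.02 and 1.04 ± 0.02, and the last 3 were called. That of density was 0.56 ± 0.04, 0.82 ± 0.03, 1.42 ± 0.03 and 1.57 ± 0.03. At 2 h the density change stayed below its upper limit of 0.61. The RNA step came between 2 and 4 h, where the level went up 1.62-fold. The density steps were largest between 4 and 6 h (1.51-fold) and between the control and 2 h (1.48-fold). Both density steps end in Ribo-Seq libraries that stood high for some other genes, as given below. The part of that in these steps was not tested. The TE differences from control were 0.48 ± 0.04, 0.04 ± 0.04, 0.63 ± 0.04 and 0.54 ± 0.04 in time order, without a call. The limits for the last 2 were 0.87 and 0.99. A fixed 2-fold limit ended the RNA calls at 4 and 6 h and the density call at 4 h, and with the 2 h library as baseline the density calls at 4 and 6 h and the RNA call at 6 h were lost. In the control MMP14 carried 0.559 Ribo-Seq FPKM per RNA-Seq FPKM, and at 19 h 0.810.

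MMP2 (ENSG00000087245) moved later. Its RNA was at 154, 146, 155, 196 and 303 FPKM in the control and then in time order, so that the first 3 libraries were close together and the 19 h library stood highest. The 19 h value was 1.97-fold of control, a log2 change of 0.98 ± 0.01 that stayed below the limit of 1.09 for genes of its level and was not called. Ribosome density of MMP2 was 116, 154, 136, 249.8 and 307 FPKM. Here the 6 and 19 h libraries were far above the other 3. The density change was 1.11 ± 0.03 at 6 h, just under the limit of 1.12, and 1.41 ± 0.03 at 19 h, above the limit of 1.30. Without the filter on low values the 19 h density change of 1.41 was not called, and against the 2 h library it was 0.99 and not called. TE differences of MMP2 from control were 0.48, 0.22, 0.75 and 0.43, none of them called.

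The secreted proteases MMP1 (ENSG00000196611) and MMP3 (ENSG00000149968), which lie next to each other on chromosome 11, stayed near control. MMP1 had the highest RNA level of the 9 in every library, with 455 FPKM in the control and 422, 515, 579 and 465 FPKM at 2, 4, 6 and 19 h. Its density was 414, 460.3, 393, 461.5 and 387 FPKM. RNA of MMP3 was at 132, 117, 129, 151 and 152 FPKM. Density of MMP3 was 118, 126, 109.9, 129 and 119 FPKM. In both genes RNA was highest at 6 or 19 h and lowest at 2 h, while density was not lowest at 2 h in either. The log2 changes of these 2 genes lay between -0.17 and 0.35 in RNA and between -0.10 and 0.16 in density, inside the limits at every time. TE of MMP1 was lowest against control at 4 h, with -0.26 ± 0.02 against a lower limit of -0.26, and was not called. Over the 10 libraries, centred within each assay, the log2 levels of MMP1 and MMP3 had a Pearson r of 0.68.

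**Figure D2:**
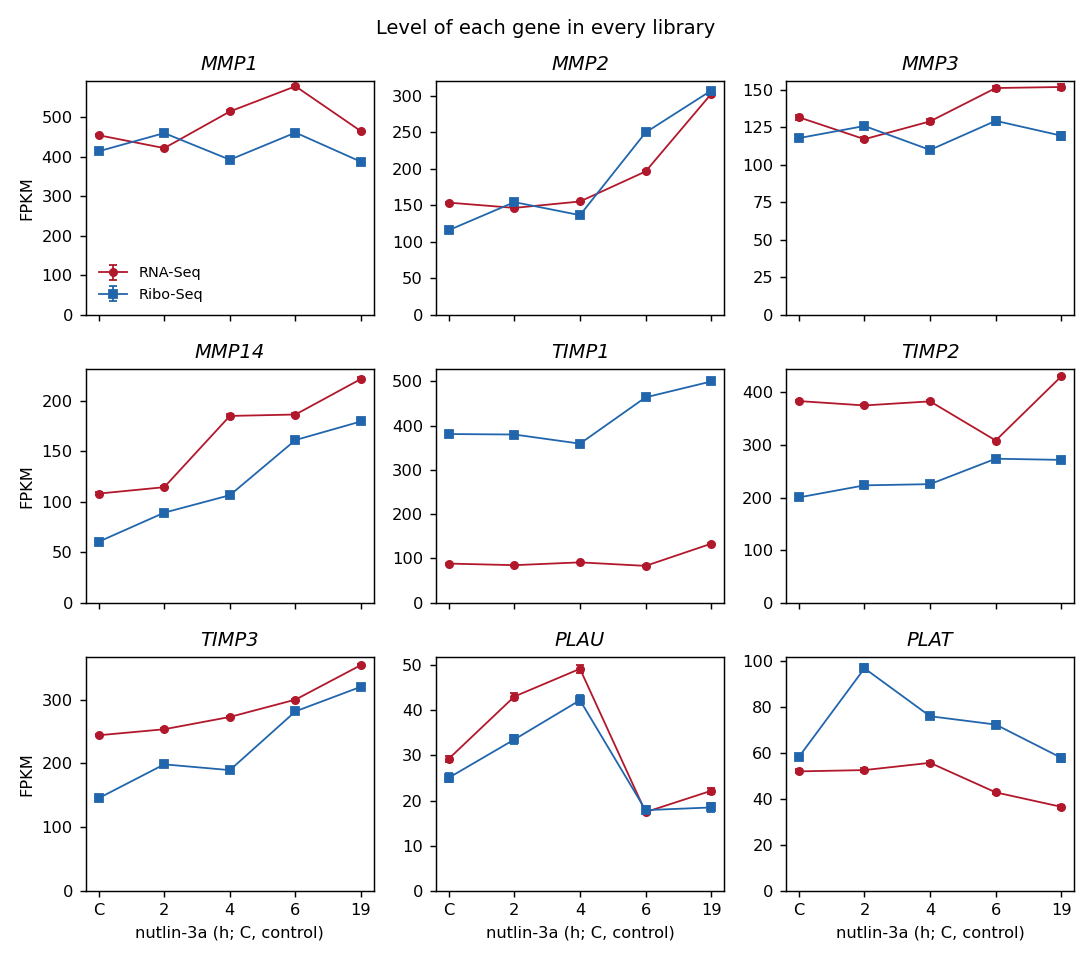
Level of each of the 9 genes in FPKM (y axis, from 0, own scale per panel) in the control (C) and after 2, 4, 6 and 19 h of nutlin-3a, in RNA-Seq (circles) and Ribo-Seq (squares). Each point is 1 library and bars are the counting error, mostly smaller than the symbol. MMP14 climbs in both assays, PLAU peaks at 4 h in both, and TIMP1 has Ribo-Seq values 3.75 to 5.57 times its RNA-Seq values.

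Among the inhibitors, TIMP3 (ENSG00000100234), which is held in the matrix after secretion, had the largest differences from control in density. RNA of TIMP3 was at 244 FPKM in the control and at 254, 273, 300.1 and 355 FPKM at 2, 4, 6 and 19 h, higher at each time. Density was 145, 198, 189, 282 and 320.4 FPKM, with the 6 and 19 h libraries well above the rest. The 19 h change was 0.54 ± 0.01 in RNA and 1.14 ± 0.02 in density, which is 2.20-fold but inside the limit of 1.33 for genes of that level. TE changes of TIMP3 were 0.39, 0.22, 0.66 and 0.60 in time order, all positive and none called.

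The 250 bases before the start of TIMP3 (chr22:32801455-32801704, plus strand, same source) are set beside those of MMP14 because the levels of the 2 genes took a similar course over the libraries, with GC boxes again in capitals.

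TIMP3 promoter: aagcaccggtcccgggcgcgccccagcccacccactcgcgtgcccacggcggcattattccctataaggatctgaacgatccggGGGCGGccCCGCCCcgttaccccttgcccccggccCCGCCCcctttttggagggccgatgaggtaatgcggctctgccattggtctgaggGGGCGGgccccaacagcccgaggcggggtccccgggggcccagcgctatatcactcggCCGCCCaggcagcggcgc

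This window holds 5 GC boxes, at 166, 158, 131, 76 and 18 bases before the start, and no match to the other 3 motifs. TIMP1 (chromosome X) has 2 GC boxes, at 135 and 45 bases before its start, and likewise no other match. MMP1, MMP2, MMP3 and TIMP2 had no entry in the promoter table used, and PLAT was left out of the search.

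TIMP1 (ENSG00000102265) stood out by its level rather than by its change. Its RNA was at 88.5, 84.9, 91.2, 83.3 and 133 FPKM, so only the 19 h library left the narrow range of the others. Its ribosome density was 381, 380.0, 359, 464 and 499.9 FPKM, the second highest of the 9 in the control and the highest at 19 h. The ratio of Ribo-Seq to RNA-Seq was 4.31 in the control, above that of 99.2% of tested genes, and 5.57 at 6 h and 3.75 at 19 h. In the other 8 genes this ratio lay between 0.522 (TIMP2) and 1.12 (PLAT) in the control. TIMP1 has the shortest transcript of the 9, with 1415 nt, and both assays were scaled to the whole transcript, so its ratio against other genes depends on how much of each transcript is coding. Its change at 19 h was 0.59 ± 0.03 in RNA and 0.39 ± 0.03 in density, and neither was called.

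RNA of TIMP2 (ENSG00000035862), the inhibitor that also takes part in pro-MMP2 activation, was at 384, 375, 383, 309 and 431 FPKM. The 6 h library was lowest and the 19 h library highest. Its density was 200.4, 223, 226, 274 and 272 FPKM, higher at 6 and 19 h than before. At 6 h, RNA was -0.31 ± 0.01 and density 0.45 ± 0.02 against control, so that TE was 0.77 ± 0.02, within its limit of 1.05.

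Sums were taken over the 4 MMPs and over the 3 TIMPs of the group. RNA of the 4 MMPs summed to 848 FPKM in the control and to 800.1, 984, 1113 and 1141 FPKM at 2, 4, 6 and 19 h, while RNA of the 3 TIMPs summed to 716, 714, 747, 692 and 919 FPKM. The ratio of inhibitor to protease RNA was 0.844 in the control, lowest at 6 h with 0.622, and 0.805 at 19 h. In density the sums were 708, 829.8, 746, 1002 and 994 FPKM for the MMPs and 727, 802, 774, 1020 and 1092 FPKM for the TIMPs. There the ratio stayed between 0.966 (2 h) and 1.10 (19 h). TIMP1 was the largest term of the TIMP density sum in every library. As said above, its level against other genes depends on how much of each transcript is coding, and so does this ratio. MMP1 and TIMP2 were the largest terms of the RNA sums in every library.

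**Figure D3:**
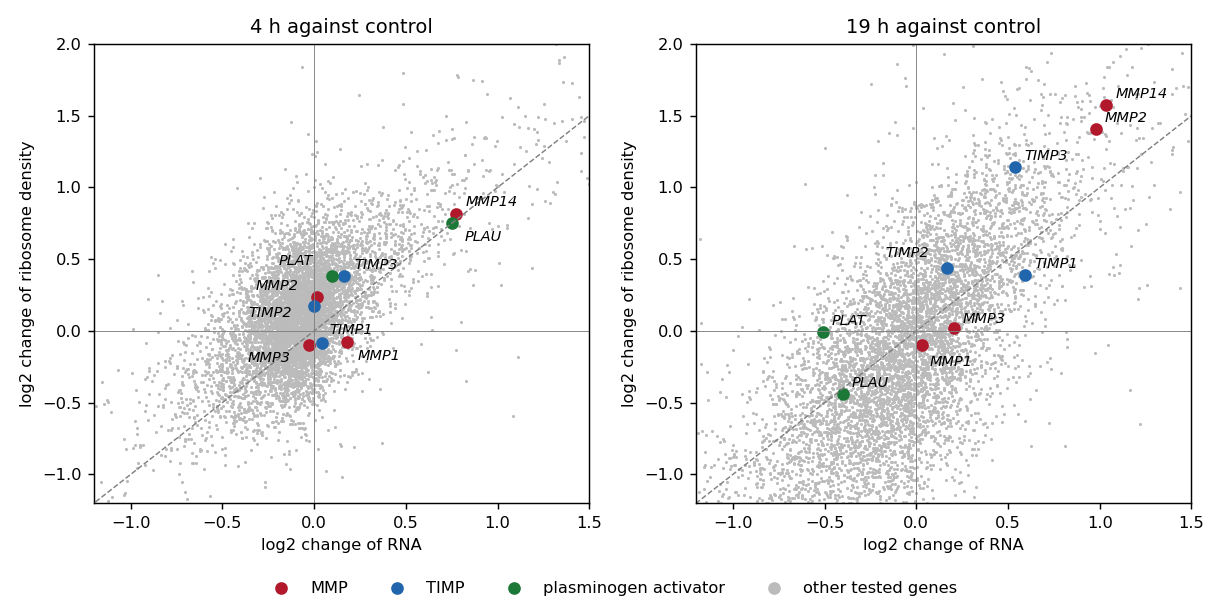
log2 change of RNA (x axis) against log2 change of ribosome density (y axis) at 4 h (left) and 19 h (right), for the 9 genes (large, coloured by role) and all other tested genes within the axes (grey), with the line of equal change dashed. MMP14 and PLAU lie near the line at 4 h, and MMP14, MMP2, TIMP3, TIMP2 and PLAT lie above it at 19 h.

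The order of the 9 genes by level changed little in RNA. In the control it was MMP1, TIMP2, TIMP3, MMP2, MMP3, MMP14, TIMP1, PLAT and PLAU, and at 19 h only MMP14 and MMP3 had changed places. In density the control order was MMP1, TIMP1, TIMP2, TIMP3, MMP3, MMP2, MMP14, PLAT and PLAU. MMP3 and MMP2 differed there by 0.02 ± 0.03 and MMP14 and PLAT by 0.05 ± 0.04 on the log2 scale, which is less than 2 counting errors in each case. At 19 h the density order was TIMP1, MMP1, TIMP3, MMP2, TIMP2, MMP14, MMP3, PLAT and PLAU.

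Several members shared much of their course. Pearson r over the 10 libraries, centred within each assay, was 0.96 for MMP2 with TIMP3, 0.94 for MMP14 with TIMP3 and 0.88 for MMP2 with MMP14. It was 0.87 for MMP2 with TIMP1, 0.79 for TIMP1 with TIMP2 and 0.75 for TIMP1 with TIMP3. These values are a description of 10 libraries that share a control, depth and handling. The genes most like MMP14 by this measure, among 978 tested genes whose RNA spanned at least 1 log2 unit, were PLXNB2 (r of 0.99), KDM4B (0.98) and FLYWCH1 (0.98). PLXNB2, a plexin receptor, was at 67.8 FPKM of RNA in the control and 163 at 19 h, and at 33.3 and 133 FPKM in density.

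Ribo-Seq libraries differed in a way that touches some of these genes. Density of COL1A1, a collagen I chain and one of the fibroblast markers, was 1063, 1992, 1070, 3984 and 5262 FPKM, so the 2, 6 and 19 h libraries were high and the control and 4 h libraries low. Its RNA was at 1642, 1558, 1634, 1501 and 2923 FPKM and did not show that split. Among the tested genes 13.7% had density at 2, 6 and 19 h above both other libraries, and 5.32% had it in RNA. MMP2, MMP3 and TIMP3 were among the former, MMP14 was not, and none of the 9 had it in RNA. In TE 12.4% of tested genes had it, with MMP2, MMP14, TIMP2, TIMP3 and PLAT among them. The part of this split in the density and TE changes of these members was not tested. It was looked for after values were seen, and the share of genes expected from the order of libraries alone was not computed.

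The plasminogen activators had their calls early, PLAU in RNA and PLAT in density and TE. RNA of PLAU (ENSG00000122861) was at 29.3 FPKM in the control and 43.1, 49.2, 17.4 and 22.2 FPKM under nutlin-3a. The 2 and 4 h libraries were above the control and the 6 and 19 h libraries below it. Its density was 25.1, 33.5, 42.2, 17.9 and 18.5 FPKM, with the same order of high and low times. The early RNA changes were 0.56 ± 0.05 and 0.75 ± 0.05, both called higher (neither reached 2-fold, and against the 2 h library the 4 h value was 0.19 and not called), and the later ones -0.75 ± 0.06 and -0.40 ± 0.05, neither called. The density changes of 0.42 ± 0.07, 0.75 ± 0.07, -0.49 ± 0.09 and -0.44 ± 0.10 were not called. At 4 h the density limit for genes of that level was 0.79. From 4 to 6 h, PLAU RNA went to 0.354 of its level and density to 0.423. TE differences from control lay between -0.14 and 0.26 with counting errors of up to 0.11.

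The annotation used gives PLAU (chromosome 10) 2 starts. The 250 bases before the downstream one (chr10:73910882-73911131, plus strand, GRCh38.p14) are shown as the counterpart to the promoters above, since this gene rose early and not late.

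PLAU promoter: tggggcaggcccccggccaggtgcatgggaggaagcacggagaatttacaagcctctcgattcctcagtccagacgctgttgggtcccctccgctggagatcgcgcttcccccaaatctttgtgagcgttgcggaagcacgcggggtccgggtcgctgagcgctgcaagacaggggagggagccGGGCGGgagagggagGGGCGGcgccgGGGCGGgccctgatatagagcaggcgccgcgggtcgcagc

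It holds 3 GC boxes, at 66, 51 and 40 bases before the start, and none of the other 3 motifs, and the window of the upstream start holds no match to any of the 4. The genes most like PLAU over the 10 libraries were AKAP12, ERRFI1 and NAV2, each with r of 0.95. ERRFI1, a feedback inhibitor of the EGF receptor, had 35.0 FPKM of RNA in the control and 23.3 at 19 h.

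RNA of PLAT (ENSG00000104368) was at 51.9, 52.5, 55.6, 42.8 and 36.5 FPKM, flat until 4 h and lower at 6 and 19 h. Its density was 58.2, 96.7, 75.8, 72.2 and 57.8 FPKM, highest at 2 h and back at the control level at 19 h. The 2 h density change was 0.73 ± 0.04, or 1.66-fold, and was called higher, while RNA changed by 0.02 ± 0.03. TE therefore rose by 0.72 ± 0.05 at 2 h, above a limit of 0.46. Later TE values were 0.28 ± 0.05, 0.59 ± 0.06 and 0.50 ± 0.07 above control without a call. PLAT TE was thus higher at 2, 6 and 19 h than in the control and at 4 h, the split given above for TE. PLAT density did not have that split, being lower at 6 and 19 h than at 4 h. Both PLAT calls rest on the 2 h Ribo-Seq library and were below 2-fold. The RNA change of -0.51 ± 0.04 at 19 h was inside the lower limit of -0.89.

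**Figure D4:**
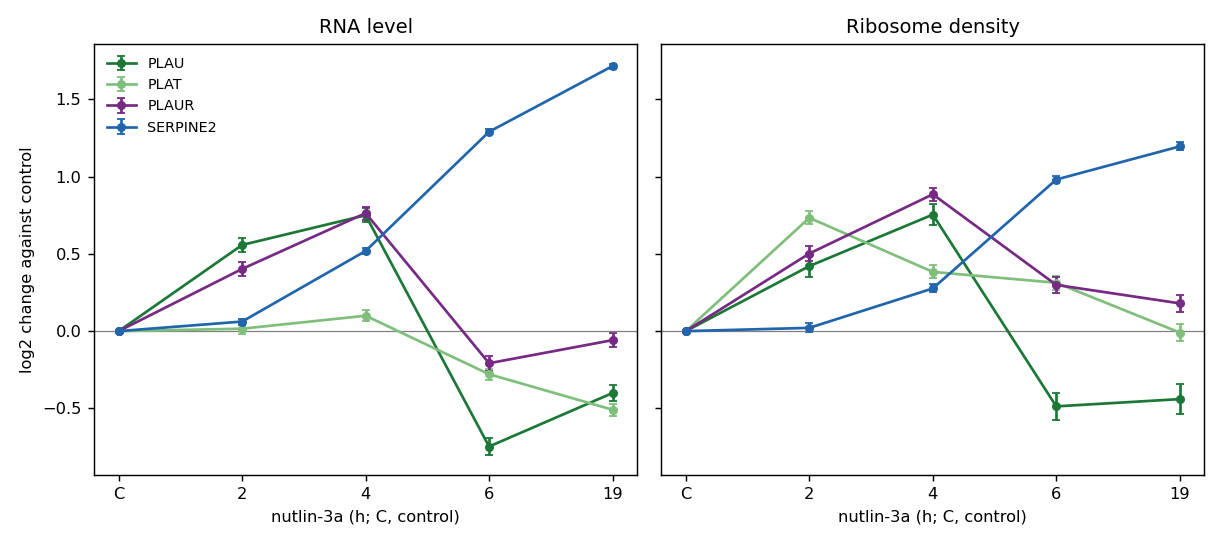
log2 change against control (y axis) of RNA (left) and ribosome density (right) of the plasminogen activators PLAU and PLAT, the urokinase receptor PLAUR and the inhibitor SERPINE2, by time of nutlin-3a (C, control). Bars are 1 counting standard error. PLAU and PLAUR peak at 4 h in both, and SERPINE2 climbs to 19 h.

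The urokinase receptor and an inhibitor of urokinase were measured alongside. RNA of PLAUR, the urokinase receptor, was at 48.4, 64.0, 82.2, 41.9 and 46.5 FPKM and rose only at 4 h, by 0.76 ± 0.04. PLAUR density rose at 4 h as well, by 0.89 ± 0.04. PLAU and PLAUR thus both had their highest RNA and density level at 4 h.

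SERPINE2, or protease nexin 1, an inhibitor of urokinase and thrombin, took another course. Its RNA was at 255, 266, 365, 622 and 836 FPKM, higher at each time, and rose by 1.29 ± 0.02 at 6 h and 1.72 ± 0.02 at 19 h. Density was 252, 255, 305, 497 and 577 FPKM. Its 19 h density change of 1.20 ± 0.03 was not called, and TE was at -0.52 ± 0.03. The study lists SERPINE2 as a known p53 target within a gene cluster induced in its own nutlin-3a data, so its rise here is not independent evidence. LRP1, an endocytic receptor that clears protease-inhibitor complexes, rose in RNA at 19 h by 1.24 ± 0.01. Its density was 30.4, 113, 40.7, 207 and 308 FPKM, with the same split between libraries as COL1A1. LRP1 has a transcript of 14897 nt, and the 200 genes nearest to it in length had a median density change of 0.40, 0.18, 0.39 and 0.27 at 2, 4, 6 and 19 h.

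The other families of the same function were read from 6 lists. They hold 89 genes, of which 34 were tested. Of 18 other MMPs, MMP17 and MMP19 alone were tested and neither was called in RNA, density or TE at any time. MMP10, the neighbour of MMP1, did not exceed 0.21 FPKM of RNA. Of 4 other MMP inhibitors 2 were tested, RECK and TFPI2. TFPI2, named because it was the one called, rose at 4 h from 3.59 to 6.93 FPKM of RNA and from 6.40 to 13.8 FPKM in density. Of 10 further genes of the plasminogen system 6 were tested. PLAUR, SERPINE2 and LRP1 had the calls given above, and S100A10 fell in RNA at 6 h, from 176 FPKM in the control to 109. Of 27 ADAM and ADAMTS genes 8 were tested, 2 of which were called in RNA at 2 h, 3 at 4 h and none later. Of these, ADAM19 rose in RNA at 2 and 4 h and ADAM33 fell at 4 h. ADAMTS1, a secreted metalloproteinase that cuts proteoglycans, fell in RNA at 2 and 4 h by 0.78 and 0.75 on the log2 scale. ADAMTS1 density rose 2.80-fold at 6 h and 3.24-fold at 19 h. No tested gene of the cathepsins and cystatins, 10 of 18 listed, was called in RNA at any time, and CTSC (cathepsin C) alone was called in density and TE, lower at 4 h. Of 12 other matrix proteases and activators 6 were tested and none was called in RNA. Density of BMP1, which cuts the C-terminal propeptide off procollagen, rose 2.52-fold at 6 h and 3.11-fold at 19 h. TE of ADAMTS1 rose at 2, 6 and 19 h (1.39, 1.03 and 1.14) and that of BMP1 at 2 and 19 h (0.64 and 0.77). Neither was called in TE at 4 h. ADAMTS2 rose in TE at 6 and 19 h (0.89 and 0.74). In contrast, TE of ADAM33 rose at 2 and 4 h (0.74 and 1.12), and that of ADAM19 fell at 2 h (-0.57). The 2, 6 and 19 h Ribo-Seq libraries are those that stood high for COL1A1, and the part of that split here was not tested. The genes named from these lists were chosen after their values were seen. Over all lists, 2, 5, 2 and 2 of the 34 genes were called in RNA in time order, 1, 4, 3 and 3 in density and 5, 2, 3 and 4 in TE, which is to be read against the shares of all tested genes given above.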

How the data were processed

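Gene expression was profiled in BJ fibroblasts by RNA-Seq and Ribo-Seq, with 1 library per time and assay, grouped as the titles label them. As the methods state, the authors aligned 50-nucleotide reads with Bowtie to protein-coding transcripts of Ensembl release 65, 1 isoform per gene, and kept reads with a unique hit. Reads shared between paralogs were thus lost. The genome build per the labels is hg19. Deposited were FPKM values with 3 decimals. Column names are the same in both tables, so the assay was taken from the table's name, and the table named for both assays was read as RNA-Seq. Of 26 histone transcripts, whose mRNAs mostly lack a poly(A) tail, 20 lay under 1 FPKM in its control, and all 26 were at least as high in the Ribo-Seq table. Both tables scale the 9 genes to the same transcript lengths, although the methods describe coding-sequence reads for Ribo-Seq, and whether reads from untranslated regions are included could not be decided.

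FPKM values step by whole reads, which gave library totals, transcript lengths and reads. Rounded totals were 23846000 to 27554000 reads for RNA-Seq and 7745000 (19 h) to 14461000 (4 h) for Ribo-Seq. The counting SE of a log2 change is the square root of the summed inverse reads, divided by the natural log of 2. It covers counting error only. Values under 1 FPKM were set to 1, and each library was divided by its assay's control on the log2 scale. Tested genes reached 5 FPKM in 1 or more libraries of both assays. A call needed a log2 ratio beyond 1.75 SDs from the median of the 200 genes nearest in mean log2 level, after the study's sliding cut-off (for TE, mean Ribo-Seq level). The script was tested on simulated data. Named were the 9 genes, PLAUR, up to 4 genes per related list called in RNA at 19 h, the 3 genes most like each member called in RNA, and CDKN1A and MDM2. A further gene that the rule names is not reported here and was left out of the lists. COL1A1, MMP10, TFPI2, S100A10, ADAM19, ADAM33, ADAMTS1, ADAMTS2, CTSC, BMP1 and the split between Ribo-Seq libraries were singled out after values were seen. The members, lists and tests were chosen with earlier results of these data known. The alternatives tried were a pseudocount of 1 FPKM, a floor of 5 FPKM, no filter, a fixed 2-fold cut-off, the 2 h library as baseline, median centring and subtraction of a median by transcript length. The methods describe an effect of the sequencing run and state that each condition was compared with a control of its run. The labels name no run, and that of the 2 and 4 h libraries is not given in the sources used here. Python 3.11.15, numpy 2.4.6 and pandas 2.3.3 were used. Promoter sequences are RefSeq, GRCh38.p14, with 5 windows for 4 of the 9 genes searched.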

Additional observations from a re-analysis of the deposited data

How the results depend on the processing

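A pseudocount of 1 FPKM, a floor of 5 FPKM, median centring and the subtraction of a median by transcript length (chosen after seeing the data) changed none of the 108 calls of members (9 genes, 12 comparisons). Without the filter on low values, 1 member was called in density at 19 h (MMP2, at 1.41, was lost) and 2 in TE at 2 h (MMP2, at 0.48, was added); more genes then enter the running medians. A fixed 2-fold cut-off left 0 members called in RNA at 2, 4 and 6 h, 0 in density at 2 and 4 h and 0 in TE at 2 h, and gave 2 in density at 6 h (MMP14 and MMP2) and TIMP3, at 1.14, in addition at 19 h. With the 2 h library as baseline, the members called were 1 in RNA at 4 h and 2 at 19 h, 0 in density at 4 h and 0 at 6 h, 1 in density at 19 h and 2 in TE at 4 h. There MMP14 density at 4 h and 6 h was 0.26 and 0.85 and its RNA at 6 h 0.70, none of them called, and PLAU RNA was 0.19 at 4 h without a call and -1.30 at 6 h, called lower. MMP2 was at 1.05 in RNA at 19 h, called, and at 0.99 in density, not called. PLAT TE at 4 h turned from 0.28 to -0.43, called lower, and MMP1 TE was -0.52, called lower. The cause of these differences was not tested. No paired analysis was possible because each group held 1 library, and for the same reason no replicate could be left out. Ribo-Seq depth limits the low genes most: the median tested gene had 294 reads at 19 h against 509 in the control.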
